A study of Mus musculus with 39 samples.

Results

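Microglia from adult offspring of mice with maternal immune activation (MIA) were compared with microglia from control offspring under resting conditions, after a saline injection and outside the PLX arm. The comparison holds the 4 libraries of MIA_CON_SAL and the 4 libraries of CON_CON_SAL, chosen by their labels, which makes 8 of the 39 libraries of the series. MIA_CON_SAL libraries carry the prenatal term MIA and CON_CON_SAL libraries the prenatal term CON, and the 2 groups otherwise have the same labels. All came from male mice aged 8 to 10 weeks, killed 18 hours after intraperitoneal saline, with no lipopolysaccharide (LPS, a bacterial cell wall component) and no PLX, a term that the labels do not define. The sources used here do not give the agent that produced MIA, the strain or the litters. Striatum was dissociated with papain and live cells were sorted for CD11b, low CD45 and P2RY12. Nothing in the labels says that the 4 replicates of a group are separate mice, so each p-value refers to the variation among these libraries alone, and that variation may be technical.

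Microglia are the resident macrophages of the brain parenchyma. At rest they hold a homeostatic expression programme kept up by CSF1R and TGF-beta signalling and by transcription factors such as SALL1, and they survey their surroundings with receptors such as P2RY12 and CX3CR1. Immune activation of the mother during gestation reaches the fetal brain while microglia are colonising it and maturing. The question put by the comparison is whether such prenatal exposure is still visible in the transcriptome of resting adult striatal microglia, before any second challenge.

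The control libraries held 2797690 to 3942920 estimated counts and the MIA libraries 2190530 to 4099620. The 20 listed microglial markers were all detected, and their summed level was 27733 to 31024 CPM (counts scaled to the library total) in controls and 28813 to 31904 in MIA libraries. Of the lymphocyte markers, 8 of 11 (Cd3e, Cd3g, Cd8a, Ms4a1, Nkg7, Gzma, Klrb1c and Trbc2) had no count in any of the 8 libraries, and the same held for the neutrophil genes Ly6g, Mmp8 and Retnlg and the monocyte gene Ly6c2. Summed astrocyte markers ran from 174 to 328 CPM in controls and from 274 to 812 in MIA libraries. The highest value belonged to MIA replicate 4 and consisted mainly of Slc1a3, a glutamate transporter. TMM-scaled over the tested genes alone, Slc1a3 stood at 757 CPM there against 146 to 154 in the other 3 MIA libraries. On the first principal component (19.8% of the variance) the groups were interspersed. On the second (17.7%) the controls lay at 21.2, 10.5, -8.22 and 8.83 and the MIA libraries at 9.80, -27.6, -4.12 and -10.5. On the third (15.9%) the controls lay at 5.75 to 12.7 and the MIA libraries at -31.4, -1.05, 7.28 and -11.0. Mitochondrial ribosomal RNA took 11.1% ± 1.38 of counts in controls and 12.6% ± 0.463 in MIA libraries (SD, n = 4 each; exact permutation test, two-sided, p = 0.114).

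No gene passed the test. Of 11231 genes tested by edgeR quasi-likelihood, 0 were called at an adjusted p under 0.05 (0%), and the smallest adjusted p was 0.125. At an unadjusted p under 0.05 there were 276 genes with a higher level in MIA libraries (2.46%) and 283 with a lower level (2.52%). In 172 genes (1.53%) every MIA library lay above every control library, and in 184 (1.64%) every MIA library lay below. Other tests of the same 8 libraries gave small numbers of calls. DESeq2 called 6 genes (Rn7sk, Slc5a3, Ptger1, H2-Q7, mt-Atp8 and Alkbh1), limma voom with quality weights called 2 (Rn7sk and Rmrp), and edgeR without a filter on low counts called 40 of 23501. Leaving out a library gave 5 calls without CON_CON_SAL replicate 2, 3 without CON_CON_SAL replicate 3, 2 without MIA_CON_SAL replicate 1, and 1 without CON_CON_SAL replicate 1, MIA_CON_SAL replicate 2 or MIA_CON_SAL replicate 3. Rmrp, called by limma voom, without the filter and without CON_CON_SAL replicate 3, has 2 entries that share exon bases. The division of its reads between them is uncertain. The called entry stood at 0 to 4.003 CPM of the library total in controls and 3.799 to 16.87 in MIA libraries. The other entry stood at 9.672 to 13.19 in controls and 6.601 to 13.26 in MIA libraries.

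The precision behind this differed with expression level. The median standard error (SE) of a log2 fold change was 0.193. The 95% interval of the fold change lay within 2-fold in both directions for 9604 genes (85.5%). Among genes with an average log2 CPM of 5 to 7 this held for 98.5%, and among genes under 3 for 44.7%, so that changes of 2-fold were not detectable for many genes of low level. In bulk libraries, fewer cells of a type and less RNA per cell cannot be told apart.

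**Figure D1:**
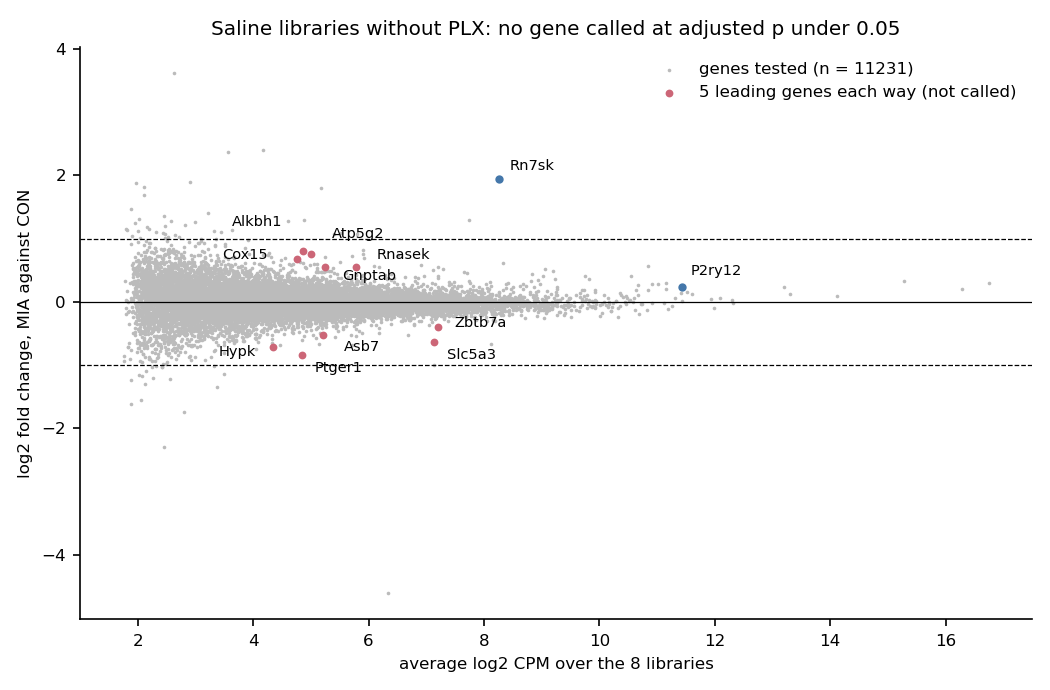
Log2 fold change of MIA against CON (vertical axis) against the average log2 CPM over the 8 saline libraries (horizontal axis), 1 grey point for each of 11231 genes, with the 5 leading genes of each direction in red and Rn7sk and P2ry12 in blue; dashed lines mark 2-fold. The cloud is centred on 0 and narrows as the level rises, the red genes lie at its edges and Rn7sk stands apart at 1.95.

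Homeostatic microglial genes differed little between the groups and none was called. All 20 of its 20 listed genes were tested, with log2 fold changes from -0.21 to 0.24 and a median of -0.02, beside a median of 0.00 over all genes tested. For all 20 the 95% interval lay within 2-fold. Tmem119, a surface protein restricted to microglia in brain, stood at 1004, 901, 799.9 and 903 CPM in the 4 controls and 932, 932, 788 and 885 in the 4 MIA libraries (CPM of single genes are TMM-scaled from here on unless stated). The groups overlapped throughout, and the log2 fold change was -0.03 (95% interval -0.20 to 0.14). Cx3cr1, the fractalkine receptor, differed by -0.02 (-0.18 to 0.14) and Csf1r, the growth factor receptor on which microglia depend, by 0.03 (-0.12 to 0.18). Sall1, a transcription factor that sets microglial identity, differed by -0.09 (-0.26 to 0.08).

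The widest differences in the programme were those of P2ry12, Gpr34 and Slc2a5. P2ry12, the ADP receptor used in the gate, stood at 2377, 2869, 2266 and 2696 CPM in controls and 3131, 2918, 3012 and 2942 in MIA libraries. All 4 MIA libraries lay above all 4 controls, by little for control replicate 2, and the log2 fold change was 0.23 ± 0.0779 (SE) and not called (edgeR adjusted p 0.931). Since cells were sorted on P2RY12 protein, its level was part of the selection. Gpr34, a lysophosphatidylserine receptor, differed by 0.24 ± 0.0916 and the fructose transporter gene Slc2a5 by -0.21 ± 0.0929, with adjusted p of 0.952 and 0.973, and in both the groups overlapped. Olfml3, a secreted matrix protein, was lower in all MIA libraries (1059 to 1180 CPM against 1184 to 1299) at a log2 fold change of -0.14. For Itgam (CD11b) and Ptprc (CD45), whose proteins were also part of the gate, the values were -0.03 and -0.04.

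**Figure D2:**
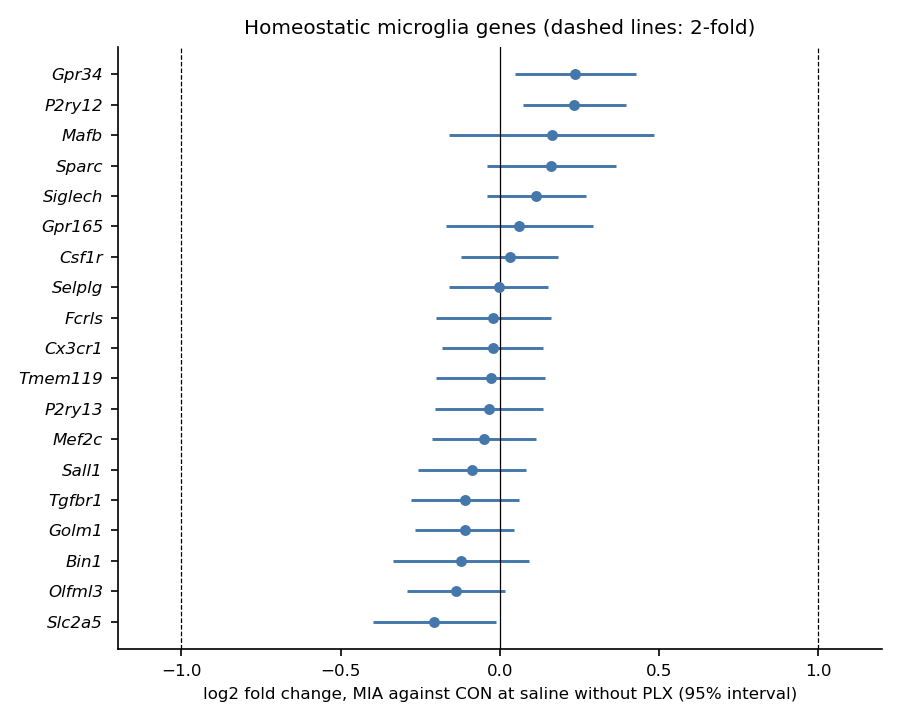
Log2 fold change of MIA against CON at saline (horizontal axis) for 19 homeostatic microglial genes, as points with 95% intervals from the edgeR fit of 8 libraries. Every interval lies between -1 and 1, and the points run from -0.21 for Slc2a5 to 0.24 for Gpr34.

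Signals and regulators that maintain this state gave similarly small values. Of 14 microglial transcription factors tested, none was called and the median was -0.04. Among 12 tested genes of TGF-beta signalling the median was -0.06, and the interval lay within 2-fold for all 12. Of these, 16.7% were above 0, beside 50.4% of all genes. Smad3, which carries the TGF-beta signal to the nucleus, stood at 112, 110.2, 111 and 95.7 CPM in controls and 88.2, 95.7, 93.2 and 94.9 in MIA libraries. The groups did not overlap, though control replicate 4 lay next to the MIA libraries, and the log2 fold change was -0.21 (95% interval -0.41 to -0.00). Tgfbr1, the type I receptor, differed by -0.11 (-0.28 to 0.06). Chromatin regulators, 20 tested, had a median of -0.03 and 0 called, with Tet1, a 5-methylcytosine oxidase, at 0.26 (-0.04 to 0.57) and the histone methyltransferase gene Kmt2d at -0.01 (-0.17 to 0.14).

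Receptors through which microglia contact and clear other cells were also near their control levels. Of 19 complement and phagocytic receptor genes tested, 0 were called and the median was 0.05. Cd68, a lysosomal glycoprotein of phagocytes, was the member with the smallest p, at 302, 313, 285 and 327 CPM in controls and 353, 362, 398 and 403 in MIA libraries. Its groups did not overlap, and the log2 fold change was 0.30 (95% interval 0.13 to 0.48) with an adjusted p of 0.654 by edgeR. Axl, a receptor tyrosine kinase for phosphatidylserine bridging proteins, differed by 0.58 (-0.01 to 1.18), and its ligand gene Pros1 by -0.00 (-0.18 to 0.18). Of 13 genes for synapse pruning and neuron contact the median was -0.02. Gabbr1, a GABA-B receptor subunit, was higher in all 4 MIA libraries (82.0 to 90.8 CPM against 71.5 to 76.7) at 0.20 (-0.01 to 0.41). The 18 tested genes of the disease-associated microglial state had a median of 0.14 and the 20 lysosomal genes one of 0.04, with 0 called in both.

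The 5 lower genes of at least 8 CPM (average log2 CPM of 3) with the smallest p were Slc5a3, Ptger1, Zbtb7a, Hypk and Asb7, and none of them was called. Slc5a3, the sodium/myo-inositol cotransporter that supplies an organic osmolyte (ENSMUSG00000089774.2, chromosome 16, 92058322 to 92087473, GRCm38), stood at 192, 179, 132 and 178 CPM in controls and 91.1, 112, 118 and 117 in MIA libraries. Every MIA library lay below every control, and the log2 fold change was -0.64 ± 0.117 (SE) with an adjusted p of 0.125. Its value ran from -0.74 to -0.56 when single libraries were left out, and it was called by DESeq2, without the filter on low counts, and without CON_CON_SAL replicate 3, the control nearest to the MIA libraries.

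Ptger1, a prostaglandin E2 receptor gene (ENSMUSG00000019464.6, chromosome 8, 83666678 to 83672753), stood at 39.5, 29.3, 38.7 and 35.9 CPM in controls and 20.4, 21.1, 21.98 and 17.0 in MIA libraries, a log2 fold change of -0.84 ± 0.161 and an adjusted p of 0.125. It was called by DESeq2, without the filter on low counts, and without CON_CON_SAL replicate 2. The groups were well apart, yet its exons overlap an annotated gene on the opposite strand and the library kit kept no strand, so its reads are uncertain there. Zbtb7a, a transcriptional repressor, lay between 161 and 175 CPM in controls and between 111 and 149 in MIA libraries, at -0.39 ± 0.102. Hypk, a huntingtin-interacting protein, differed by -0.72 ± 0.189, and 1893 of its exon bases are shared with the neighbouring Serf2. Asb7, a substrate receptor of a ubiquitin ligase, differed by -0.52 ± 0.142 with no overlap between groups. For Zbtb7a, Hypk and Asb7 the adjusted p was 0.654.

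Among the higher genes, Alkbh1 had the smallest p. Alkbh1 encodes a demethylase of DNA and transfer RNA (ENSMUSG00000079036.10, chromosome 12, 87425840 to 87444017) and stood at 19.3, 25.8, 18.8 and 20.1 CPM in controls and 36.9, 34.9, 34.2 and 39.8 in MIA libraries. The groups were separated by a wide margin, at a log2 fold change of 0.80 ± 0.157 (SE) and an adjusted p of 0.125. It was called by DESeq2, without the filter on low counts, and without CON_CON_SAL replicate 2. Cox15, needed to make the haem of cytochrome c oxidase, stood at 20.8, 21.8, 19.5 and 19.6 CPM in controls and 29.8, 29.2, 35.3 and 36.7 in MIA libraries, at 0.68 ± 0.157 and an adjusted p of 0.561. Atp5g2, a gene for subunit c of the mitochondrial ATP synthase, differed by 0.75 ± 0.174, with 18.0 to 33.3 CPM against 35.0 to 43.6 and the same adjusted p of 0.561, and was called without the filter and without CON_CON_SAL replicate 2.

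Gnptab and Rnasek completed the higher side. Gnptab, the enzyme that tags lysosomal hydrolases with mannose 6-phosphate, lay at 27.9 to 32.1 CPM in controls and 39.5 to 49.6 in MIA libraries, at 0.55 ± 0.137. Rnasek, a small protein associated with the vacuolar proton pump, differed by 0.54 ± 0.141, and its groups overlapped at control replicate 1 (57.5 CPM) and MIA replicate 4 (55.4 CPM). Both had an adjusted p of 0.654. Of the 10 leading genes, only Zbtb7a and Asb7 share no exon bases with another annotated gene.

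**Figure D3:**
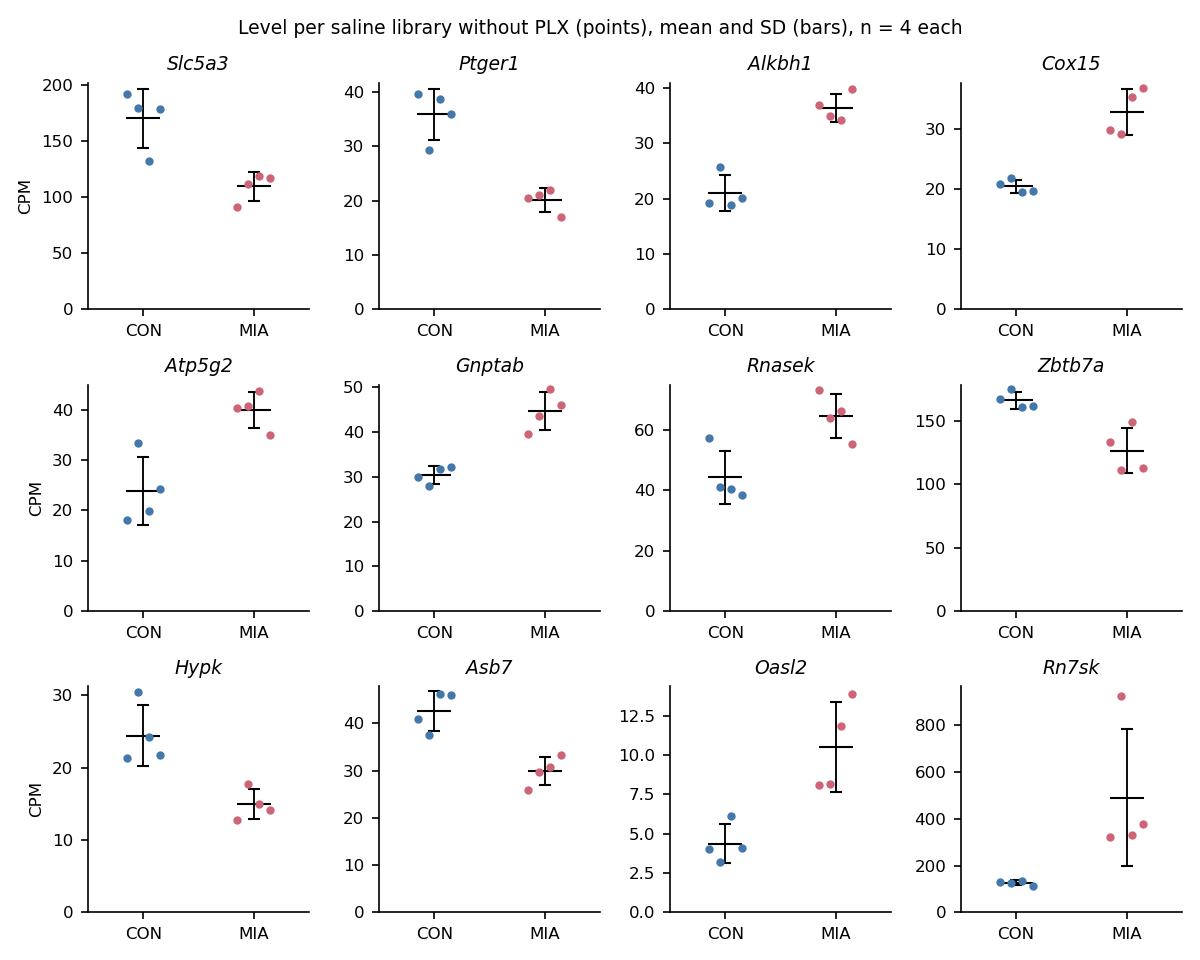
CPM (vertical axes, from 0) in each saline library without PLX for the 10 leading genes, Oasl2 and Rn7sk, with CON in blue and MIA in red; points are libraries and bars show the mean and SD of 4. The groups do not overlap in any panel but Rnasek, and in Rn7sk MIA replicate 2 lies far above the other MIA libraries.

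Interferon-stimulated genes had the highest median of the lists examined. Of 30 listed genes 18 passed the filter on low counts, 0 were called, and 6 were higher (33.3%) and 1 lower at an unadjusted p under 0.05, beside 2.46% and 2.52% of all genes. The median log2 fold change was 0.35 against 0.00 over all genes, and ran from 0.23 without MIA_CON_SAL replicate 4 to 0.49 without CON_CON_SAL replicate 3. Oasl2, an oligoadenylate synthetase-like antiviral protein, stood at 4.06, 3.22, 6.16 and 4.08 CPM in controls and 8.11, 8.14, 11.9 and 13.9 in MIA libraries. Its groups did not overlap, and the log2 fold change was 1.26 ± 0.309 (SE) and not called (edgeR adjusted p 0.654).

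The other members at that unadjusted threshold were smaller in difference. Irf9, the DNA-binding part of the type I interferon signalling complex, differed by 0.48 ± 0.151, and its partner Stat2 by 0.36 ± 0.161. Ifitm3, which blocks viral entry, differed by 1.01 ± 0.408, Ifit2 by 0.69 ± 0.304 and Xaf1 by 0.56 ± 0.255, each with overlapping groups. The antiviral GTPase gene Mx2 was the 1 member lower, at -0.61 ± 0.275. Ifih1, the cytosolic sensor of double-stranded RNA, stood at -0.01 (95% interval -0.26 to 0.24), and Irf7, the main amplifier of the response, was at 2.45 to 3.80 CPM in controls and 1.83 to 7.18 in MIA libraries.

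Genes of MHC class I presentation, many of which respond to interferon, were also measured. All 16 listed were tested, 0 were called, and 5 were higher (31.2%) and 0 lower at an unadjusted p under 0.05, beside 2.46% and 2.52% of all genes. In 14 (87.5%) the value was above 0, beside 50.4% of all genes, and the median was 0.29 (0.19 without MIA_CON_SAL replicate 4). B2m, the invariant light chain, stood at 1527, 1655, 1353 and 1374 CPM in controls and 1964, 1575, 1664 and 1905 in MIA libraries, a log2 fold change of 0.27 ± 0.0854 with an adjusted p of 0.783. MIA replicate 2 lay within the control range. H2-Q7, a non-classical class I gene, stood at 38.3, 24.7, 26.3 and 25.6 CPM in controls and 76.2, 40.2, 38.8 and 89.7 in MIA libraries, at 1.10 ± 0.313 and an adjusted p of 0.952, and was called by DESeq2 and without the filter on low counts. In H2-Q7, and likewise in H2-D1 (202 and 237 CPM against 137 to 163 in the other 6 libraries) and H2-K1 (267 and 293 against 171 to 216), the high libraries were MIA replicates 1 and 4. H2-Q7 belongs to a family of near-identical genes, so the division of its reads among them is uncertain. Of MHC class II, 5 genes passed the filter, with a median of 0.25, and H2-Aa reached 20.4 CPM in MIA replicate 1 and at most 4.56 in the other 7.

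The start regions of these genes were searched for the interferon-stimulated response element, taken as GAAA, any 2 bases and GAAA on either strand, from 250 bases before to 50 bases after the start in RefSeq promoters of build GRCm38.p6. The element was found in 8 of 13 tested interferon-stimulated genes with an entry (61.5%) and in 3 of 14 MHC class I genes (21.4%), against 299 of 8026 tested genes (3.73%). Of those higher at an unadjusted p under 0.05 it was found in 2 of 6 interferon-stimulated genes (33.3%), Ifitm3 and Stat2, and in 1 of 5 MHC class I genes (20%), B2m. It was not found in Oasl2, Irf9, Ifit2, Xaf1, H2-Q7, H2-D1, Tap1 or Psmb9. The 250 bases before the start of Stat2 (chr10:128270248-128270497, plus strand) and B2m (chr2:122147437-122147686, plus strand) are shown, 5′ to 3′, because both genes are named above and carry the element there, with the match in capitals. It lies 222 bases before the start in Stat2 and 139 bases before it in B2m.
Stat2: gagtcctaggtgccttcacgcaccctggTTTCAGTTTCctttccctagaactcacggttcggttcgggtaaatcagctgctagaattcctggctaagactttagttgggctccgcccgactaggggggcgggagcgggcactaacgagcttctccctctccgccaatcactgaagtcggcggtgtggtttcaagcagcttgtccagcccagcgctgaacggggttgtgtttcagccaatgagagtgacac
B2m: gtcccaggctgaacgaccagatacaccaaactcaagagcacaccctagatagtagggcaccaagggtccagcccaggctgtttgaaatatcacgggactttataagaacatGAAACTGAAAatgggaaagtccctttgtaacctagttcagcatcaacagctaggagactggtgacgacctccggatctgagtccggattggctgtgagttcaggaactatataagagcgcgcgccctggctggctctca

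Inflammatory mediators differed little in the middle and varied between libraries. Of 20 tested NF-kB targets and inflammatory mediators 0 were called and the median was 0.12. The 95% interval lay within 2-fold for 12 of the 20 (60%), beside 85.5% of all genes. Tnf, an inflammatory cytokine, stood at 105, 75.9, 44.5 and 61.2 CPM in controls and 95.8, 80.9, 60.4 and 105 in MIA libraries. The groups overlapped fully at a log2 fold change of 0.25 (95% interval -0.43 to 0.92). Il1b, the precursor of interleukin 1 beta, stood at 42.8, 26.8, 13.3 and 22.6 CPM in controls and 128, 16.7, 18.2 and 55.8 in MIA libraries, at 1.08 (-0.75 to 2.91), with MIA replicate 1 the highest and 2 MIA libraries inside the control range. Without MIA replicate 1 the value was 0.20.

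MIA replicate 1 also held the highest level of several rapidly induced genes. Fos, an immediate early transcription factor, stood at 937 CPM there against 137 to 337 in the other 7 libraries, Jun at 1735 against 417 to 971 and Egr1 at 4216 against 1177 to 2642. The chemokine gene Ccl3 stood at 164 CPM in this library against 33.2 to 84.1 elsewhere, and Ccl4 at 62.5 against 10.3 to 25.4. Immediate early and dissociation stress genes, 21 tested and 0 called, had a median of 0.30 with this library and -0.33 without it. The 9 chemokine genes tested, 0 called, had a median of 0.25 with it and -0.02 without it, and the inflammatory mediators 0.12 with it and -0.08 without it. In the stress list 2 of 21 tested members were lower and 0 higher at an unadjusted p under 0.05, beside 2.52% and 2.46% of all genes. The lower members were Fosl2 at -0.46 ± 0.130 (SE) and the chaperone gene Hspa1b at -0.41 ± 0.144.

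Genes that sense LPS were centred near 0 before any LPS was given, though the intervals of several were wide. Tlr4, its receptor, stood at 128, 135, 123 and 121 CPM in controls and 142, 112, 134 and 123 in MIA libraries, at 0.01 (95% interval -0.19 to 0.22). Of 17 tested genes for LPS sensing and its brakes 0 were called and the median was 0.03. The 95% interval lay within 2-fold for 12 of the 17 (70.6%), beside 85.5% of all genes. Ly96, the co-receptor MD-2, differed by 0.60 ± 0.246 (SE), with MIA replicate 4 at 13.5 CPM inside the control range of 8.55 to 20.4, and Ticam1, the adaptor TRIF, by 0.29 ± 0.132. Genes that respond to LPS were also defined in CON_PLX_LPS against CON_PLX_SAL, 10 libraries that share none with the present 8, as called and more than 2-fold changed. That gave 1350 higher genes (11% of 12251 tested) and 1092 lower genes (8.91%). At saline without PLX, 1014 of the higher set were tested, with a median of 0.06 for MIA against CON and 59.7% above 0, beside 50.4% of all genes. For 1061 tested genes of the lower set the median was -0.00 and 49.0% were above 0.

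**Figure D4:**
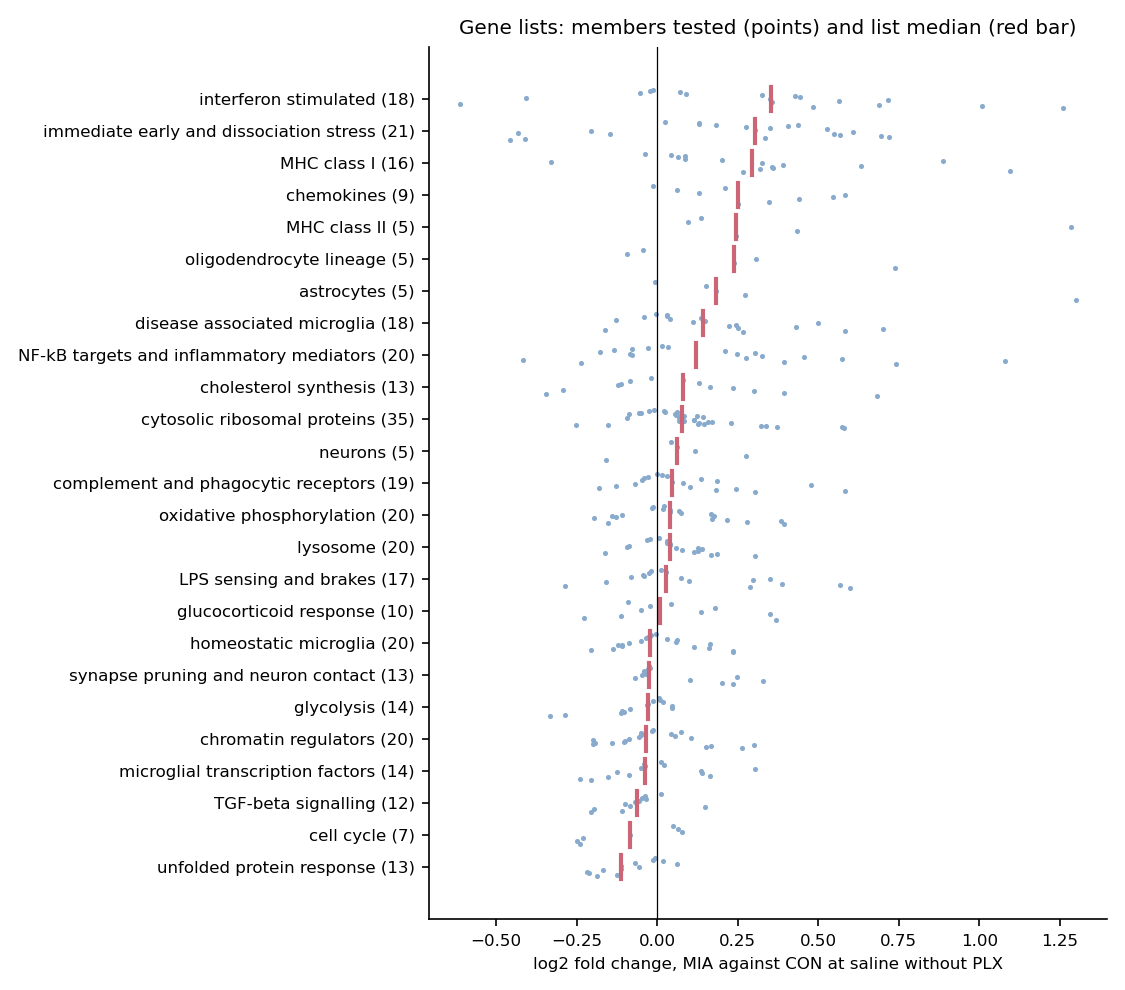
Log2 fold change of MIA against CON at saline without PLX (horizontal axis) for each tested gene (points) of each gene list with at least 5 tested members (rows, number of genes in brackets), with the list median as a red bar. Medians run from -0.11 for the unfolded protein response to 0.35 for interferon-stimulated genes, and the points of most lists lie on both sides of 0.

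Metabolic and housekeeping groups held no call. Cholesterol synthesis (13 tested, median 0.08), glycolysis (14, -0.03), oxidative phosphorylation (20, 0.04), cell cycle (7, -0.08) and glucocorticoid response (10, 0.01) were centred near 0. Pgk1, a glycolytic kinase, differed by -0.33 ± 0.161 (SE) and Uqcrc1, a complex III subunit, by 0.39 ± 0.182. Unfolded protein response genes, 13 tested, had a median of -0.11, with 15.4% above 0 beside 50.4% of all genes. The median became 0.06 without CON_CON_SAL replicate 1, the library in which the chaperone Hsp90b1 stood at 2025 CPM against 1614 to 1677 in the other controls. The 35 cytosolic ribosomal protein genes had a median of 0.08 (-0.03 without CON_CON_SAL replicate 3), and 3 were higher (8.57%) and 0 lower at an unadjusted p under 0.05, beside 2.46% and 2.52% of all genes. Rpl35 stood at 26.9, 31.8, 16.8 and 23.9 CPM in controls and 43.4, 37.8, 34.9 and 32.2 in MIA libraries, without overlap, at 0.58 ± 0.175.

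Rn7sk was chosen for description after its values were seen. Rn7sk is the 7SK small nuclear RNA, which holds the elongation factor P-TEFb inactive (ENSMUSG00000065037.1, chromosome 9, 78175303 to 78175633, GRCm38, 331 bases). It stood at 131, 126, 136 and 112 CPM in controls and 324, 927.9, 331 and 377 in MIA libraries, a log2 fold change of 1.95 ± 0.404 (SE) with an adjusted p of 0.675 by edgeR. Every MIA library was more than 2-fold above every control. Without MIA_CON_SAL replicate 2, the highest library, the value was 1.45 and the adjusted p 1.55e-08, and the gene was also called by DESeq2 (0.0047) and limma voom (0.0264). Its share of counts was 0.0128% ± 0.00109 in controls and 0.0473% ± 0.0277 in MIA libraries (SD, n = 4 each). The exact two-sided permutation p was 0.0286, the smallest that 70 relabelings allow, and 0.229 adjusted over 8 library properties. Complete separation alone gives this p, and the gene was picked after that separation was seen, so the p adds no support. Separation was as complete in 172 higher genes (1.53%) and 184 lower genes (1.64%) of 11231.

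A few other short transcripts were looked at in the same way, also after their values were seen. mt-Atp8, a mitochondrial ATP synthase subunit whose gene is 204 bases long, stood at 3.04, 7.16, 7.87 and 5.44 CPM in controls and 10.7, 52.6, 34.9 and 27.0 in MIA libraries, at 2.404 ± 0.537 (SE) and an adjusted p of 0.675. It was called by DESeq2, with the replicate block, without the filter, and without MIA_CON_SAL replicate 1. It shares 43 exon bases with mt-Atp6 on the same strand, so the division of reads there is uncertain. For mt-Atp6 the groups overlapped, at 229.1 to 578.7 CPM of the library total in controls and 449.7 to 795.1 in MIA libraries. Rpph1, the RNA of ribonuclease P (319 bases), differed by 1.13 ± 0.336, which became 0.73 without MIA_CON_SAL replicate 2, and its groups touched when scaled to the library total (control replicate 1 at 7.61 CPM, MIA replicate 3 at 7.57). Of its exon bases, 233 are shared with Ccnb1ip1 on the same strand, so the division of its reads is uncertain. Both mt-Atp8 and Rpph1, like Rn7sk, were highest in MIA replicate 2. The groups did not overlap for mt-Nd3, a complex I subunit, at 30.4 to 62.4 CPM of the library total in controls and 65.6 to 83.1 in MIA libraries. Its log2 fold change was 0.76 ± 0.214, and it was not called in the main fit. It was called without the filter and without CON_CON_SAL replicate 2, and in the PLX arm at 0.63 ± 0.140. The groups overlapped for Rn7s1, a 7SL RNA gene, at 0.15 ± 0.491 and for mt-Nd4l, another complex I subunit, at 0.58 ± 0.372. With PLX, Rn7sk and mt-Atp8 both had lower values in the MIA libraries, at log2 fold changes of -0.91 ± 0.345 (SE) and -0.95 ± 0.306. Neither was called there (edgeR adjusted p 0.422 and 0.179). As CPM of the library total, Rn7sk stood at 117 to 142 in CON_CON_SAL, 302 to 885 in MIA_CON_SAL, 140 to 324 in CON_PLX_SAL and 86.4 to 119.8 in MIA_PLX_SAL. On the same scale the groups with PLX overlapped narrowly for mt-Atp8 (6.35 to 15.4 in CON_PLX_SAL, 4.545 to 6.44 in MIA_PLX_SAL). They overlapped more widely for Rpph1 (5.62 to 12.1 and 5.704 to 8.81). The interaction had an unadjusted p of 0.000274 for Rn7sk and 0.0003 for mt-Atp8, and an adjusted p of 0.520 for each. The Rn7sk interaction was called by DESeq2 (adjusted p 0.000433) and by limma voom (0.0259). That of mt-Atp8 was called by DESeq2 (0.00657), by edgeR without the filter on low counts (1.47e-09) and by edgeR without MIA_CON_SAL replicate 1 (0.000138).

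The same prenatal contrast within the PLX arm (4 CON_PLX_SAL and 3 MIA_PLX_SAL libraries, which share none with the present 8) called 124 genes higher (1.04% of 11962) and 12 lower (0.1%). The 136 calls became 52 with the replicate block, 80 without CON_PLX_SAL replicate 1, 90 without CON_PLX_SAL replicate 4, 87 without MIA_PLX_SAL replicate 2 and 208 without MIA_PLX_SAL replicate 3. Of the 136 genes, 59 encode cytosolic ribosomal proteins. All 124 higher genes were tested without PLX. Their median was 0.55 in the PLX arm and 0.14 without PLX, where 109 (87.9%) were above 0, beside 50.4% of all genes, and 21 (16.9%) were higher at an unadjusted p under 0.05, beside 2.46%. The median without PLX ran from 0.04 without CON_CON_SAL replicate 3 to 0.24 without CON_CON_SAL replicate 2. Of the 12 lower genes, 6 were above 0 without PLX.

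Several of the genes described above were among those called in the PLX arm. B2m rose there by 0.52 ± 0.0635 (SE; adjusted p 0.000175) beside 0.27 without PLX, H2-D1 by 0.56 beside 0.32, Cd68 by 0.34 beside 0.30, Rpl35 by 0.75 beside 0.58, and Atp5g2 by 0.91 beside 0.75. Cst3, the protease inhibitor cystatin C, rose by 0.52 with PLX and stood at 0.12 (95% interval -0.25 to 0.49) without it. Zbtb7a and Oasl2 had opposite signs in the 2 arms, at 0.25 and -0.60 with PLX (adjusted p 0.262 and 0.449) beside -0.39 and 1.26 without. No gene was called for the difference between arms itself (0% of 12239), with 652 genes at an unadjusted p under 0.05. DESeq2 called 3 genes for it and limma voom 1. Zbtb7a had an unadjusted interaction p of 7.49e-05 and Oasl2 one of 0.00012 (adjusted p 0.368 for both), and among the 136 genes the smallest adjusted p was 0.520. The Zbtb7a interaction was called by edgeR without the filter on low counts (adjusted p 0.0212), and that of Oasl2 was not. Across 11171 genes the log2 fold changes of the 2 arms had a Pearson correlation of 0.124, and 55.4% had the same sign. This is a description across genes, which are not independent replicates.

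**Figure D5:**
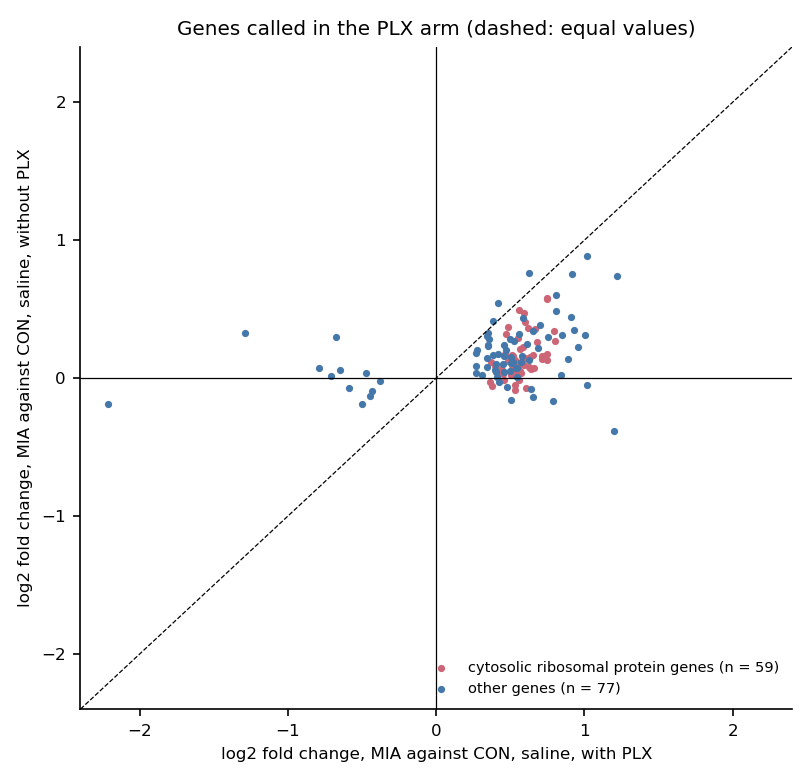
For the 136 genes called in the PLX arm, log2 fold change of MIA against CON at saline with PLX (horizontal axis) and without PLX (vertical axis), with cytosolic ribosomal protein genes in red, other genes in blue and a dashed line at equal values. Most of the 124 genes higher with PLX lie above 0 and below the dashed line, and the 12 lower genes lie on both sides of 0.

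After LPS without PLX, MIA against CON (6 and 4 libraries) called 1 of 11344 genes (0.00882%), the unnamed predicted gene Gm49369, at -8.42, and it was not called when MIA_CON_LPS replicate 2, 3, 4, 5 or 6 was left out. MIA_CON_LPS replicate 6 differed from a library labelled MIA_PLX_SAL and marked to be excluded by less than any other of 741 pairs (chi-square per degree of freedom 1.53, next pair 2.42). The common dispersion was 0.0218 at saline and 0.165 after LPS, the latter in a fit that held MIA_CON_LPS replicate 6. For LPS against saline in CON:PLX it was 0.0744. The difference between the contrast after LPS and at saline called 0 genes (0% of 12269), 278 at an unadjusted p under 0.05, and 0 by DESeq2 and limma voom. Slc5a3 stood at 0.98 after LPS beside -0.64 at saline and Alkbh1 at -0.29 beside 0.80, with unadjusted interaction p of 0.0068 and 0.000839, neither of which passed adjustment. P2ry12 stood at 1.152 after LPS (adjusted p 0.999) beside 0.23 at saline. For LPS against saline in CON:PLX it stood at -3.26 ± 0.215 (SE). How far MIA_CON_LPS replicate 6 moved the P2ry12 value after LPS was not tested.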

How the data were processed

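RNA-seq libraries of sorted striatal microglia were analysed from the 1 deposited table of estimated counts per gene (55487 identifiers, 39 libraries). As deposited by the authors, 14.7% of nonzero estimated counts had decimals, and all were rounded. Per the submitters' processing notes the tools were STAR, RSEM and DESeq2, with no versions; build and annotation: not given in the sources used here. Symbols came from GENCODE M21 (55141 identifiers matched). The cDNA kit amplifies linearly, keeps no strand and depletes no ribosomal RNA, per the labels' protocols. Each fit held only the libraries of its groups (8 for the main comparison, 7 for the PLX arm, 10 after LPS and for the LPS lists, 15 and 18 for the interactions): edgeR 4.0.16 in R 4.3.3, filterByExpr (minimum count 10, minimum total 15), TMM, robust quasi-likelihood, two-sided, Benjamini-Hochberg over all genes tested, called at an adjusted p under 0.05. SE is the log2 fold change divided by the square root of F. Library properties were compared by exact permutation over 70 relabelings. The script was tested on simulated data. The 2 libraries whose titles say exclude were left out. Same-numbered MIA and CON libraries had deviations correlated at 0.046, 0.056, 0.047 and -0.016, so numbers were not taken as pairs. Alternatives were RLE size factors, DESeq2 1.42.0, limma 3.58.1 voom with quality weights, no filter, a replicate block, fits of 37 and 39 libraries, and leaving out each library.

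The comparison, gene lists and alternatives were chosen with earlier results of these data known. Where under 5 genes were called in a direction, the 5 with the smallest p at an average log2 CPM of at least 3 were named (2 unnamed predicted genes were skipped), with the 2 members of smallest p and the 1 of largest p from each of 32 lists and 9 microglial genes always. Genes discussed beyond this rule (Rn7sk, mt-Atp8, Rpph1, mt-Nd3, and further members of the lists) were picked after their values were seen. A few single-gene values are not reported here.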

Additional observations from a re-analysis of the deposited data

Results flagged for a closer look

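In groups of 4 libraries, 19 of 224 sets of values had a library far from the other 3 (Dixon's 95% limit, which chance passes in about 1 of 20 sets). MIA_CON_SAL replicate 4 accounted for several of them. Its Slc1a3 level was 756.6 CPM (others 146 to 154), Uty 75.1 (39.2 to 39.8), Mki67 21.5 (11.2 to 11.96), Smad2 107.7 (95.7 to 97.4), Ly96 13.5 (21.98 to 22.7), Pecam1 19.1 (25.8 to 27.5) and Rps9 229.6 (306 to 319). Ribosomal protein genes took 0.912% of its counts (1.147 to 1.164 in the others). MIA_CON_SAL replicate 2 stood out in Rn7sk at 927.9 CPM (324 to 377), or 0.0885% of counts, and in Meg3, a neuronal non-coding RNA, at 14.8 CPM (8.31 to 9.16). In MIA_CON_SAL replicate 1 the immediate early gene Ier5 was at 743.7 CPM (376 to 379).

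Among controls, replicate 1 stood out in H2-Q7 at 38.3 CPM (24.7 to 26.3), Hsp90b1 at 2025 (1614 to 1677) and the transcription factor gene Tal1 at 88.7 (47.2 to 51.4). Control replicate 3 was low in Ier5 at 315.8 CPM (499.9 to 518) and in Ctss, a lysosomal protease, at 2472 (2856 to 2875). Control replicate 4 was low in Smad3 at 95.7 CPM (110.2 to 112), and control replicate 2 in Itga4 at 0.716 (3.80 to 4.45).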

How the results depend on the processing

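The count of 0 genes for MIA against CON at saline without PLX was the same with RLE size factors and in fits of 37 and 39 libraries. It was 6 with DESeq2, 2 with limma voom, 40 without a filter on low counts (24 of these had been tested with the filter and 16 had not), 1 with the replicate block (mt-Atp8), and 0 to 5 when single libraries were left out. Same-numbered libraries did not deviate together, so the block rests on a number alone. In the PLX arm 136 calls became 254 without a filter, 52 with the replicate block, and 80 to 208 when single libraries were left out. After LPS the 1 call became 0 with limma voom and 0 without a filter, and was 0 to 1 with libraries left out. The interaction with PLX gave 3 genes with DESeq2, 1 with limma voom, 13 without a filter and 0 to 3 with libraries left out, and the interaction with LPS gave 0 to 0. LPS calls in CON:PLX ran from 3423 to 4828 with libraries left out, against 2385 higher and 2012 lower with all. The block moved no other of these counts by over 1.5 times. Of 104 named genes, 8 were called under some of 15 alternatives, and 40 took the opposite sign under some, none of them called in either. The MIA difference in the Rn7sk share, 0.0345 percentage points, ran from 0.0207 to 0.0401 with libraries left out. The cause of these differences was not tested. Genes of low level are the ones that depth limits.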

Other observations

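Of the listed markers of other cells, those that passed the filter on low counts gave no call, but no lymphocyte or erythroid marker and only 1 neutrophil marker passed it. The CPM in this paragraph are of the library total after TMM scaling. Summed neuronal markers stood at 48.8 to 66.1 CPM in controls and 38.1 to 76.8 in MIA libraries. Oligodendrocyte lineage markers stood at 73.2 to 100.03 and 77.9 to 122, and border-associated macrophage markers at 312 to 435 and 341 to 385. Summed monocyte markers stood at 41.4 to 61.8 CPM in controls and 51.2 to 130.03 in MIA libraries, of which Nr4a1, also an immediate early gene, made up 29.2 to 50.5 in controls and 41.2 to 111 in MIA libraries, highest in replicate 1. Ccr2, the chemokine receptor of inflammatory monocytes, lay between 2.37 and 10.4 in all 8. Erythroid markers reached 27.0 CPM in 1 control and 15.2 in 1 MIA library. The Y-linked genes Ddx3y (62.4 to 77.4 CPM) and Kdm5d (70.4 to 89.98) were present in all 8 libraries.

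Tlr7, an endosomal sensor of single-stranded RNA, was chosen after its values were seen, as was Bcl6. Tlr7 stood at 376, 445, 488 and 446 CPM in controls and 504, 565, 537 and 905 in MIA libraries, without overlap, at a log2 fold change of 0.52 ± 0.195 (SE), and was not called (adjusted p 0.973 by edgeR). Bcl6, a transcriptional repressor, stood at 106, 76.2, 71.5 and 81.3 CPM in controls and 52.6, 66.5, 69.8 and 50.9 in MIA libraries, at -0.49 ± 0.137 and an adjusted p of 0.654. Both were called when low counts were not filtered, at adjusted p of 0.00193 and 0.0302.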
